A study of Mus musculus with 24 samples.

Results

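The messenger RNA of 10 enzymes that process the core of N-glycans, start their branches or extend those branches with N-acetyllactosamine (LacNAc) was compared across 8 lines of MC38, a mouse colorectal cancer cell line. The genes were Mgat1, Man2a1, Mgat2, Mgat4a, Mgat4b, Mgat5, B4galt1, B4galt3, B4galt4 and B3gnt2. They form a list of named makers of the acceptor of the Lewis X antigen. The list uses no measured value, but it was chosen with earlier results of these data known. All 10 were found by symbol among the 52636 genes of the table.

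Bulk RNA was sequenced from 24 samples, 3 of each line, all of C57BL/6 origin. WT was the unmodified line, grown without puromycin and harvested at passages 7, 8 and 9. MOCK#1 carried a CRISPR-Cas9 construct without a target gene and served as the reference of the knockout lines COSMC KO, CMAS KO and DKO. COSMC KO targeted C1galt1c1, the gene of the chaperone COSMC, CMAS KO targeted Cmas, and DKO targeted both. These 4 lines were harvested at passages 4, 5 and 6. MOCK#2 carried the activating CRISPR-dCas-VPR construct without a target and was harvested at passages 6, 7 and 8, as was the FUT9 line, in which FUT9 was the target. The line labelled FUT4 used the same construct and was harvested at passage 7 in samples 1 and 3 and at passage 8 in sample 2. The 7 modified lines were grown with puromycin. COSMC KO was sorted in bulk for high binding of a Tn antigen lectin, and each condition is a single line, so an edit and the history of its line cannot be told apart. The study harvested its lines at independent time points, so p-values measure the spread between harvests of 1 line.

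N-glycans are attached to asparagine in the endoplasmic reticulum and trimmed on the way to the Golgi apparatus. There Mgat1 adds the first N-acetylglucosamine, Man2a1 removes mannose from the product, and Mgat2 adds the second N-acetylglucosamine to complete a complex biantennary glycan. Mgat4a and Mgat4b start a further branch on one arm of the core and Mgat5 starts a further branch on the other arm. B4galt1, B4galt3 and B4galt4 add galactose to N-acetylglucosamine and so make LacNAc, and B3gnt2 adds the next N-acetylglucosamine from which poly-LacNAc grows. FUT4 and FUT9 place fucose on LacNAc to make Lewis X.

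The 250 bases before the RefSeq start of 4 of the genes are shown, and these genes cover part of the patterns below. Mgat2 and B4galt1 were higher in the FUT9 line than in the line labelled FUT4, B4galt4 had the widest range among lines, and B4galt3 passed the test in no comparison. The sequences are from RefSeq on GRCm38.p6, 5′ to 3′ on the strand of the gene. Capitals mark matches on either strand to GGGCGG (the GC box), CCAAT (the CCAAT box) or TGACGTCA (the cyclic AMP response element, CRE), and overlapping matches were counted singly.
Mgat2, chr12:69183908-69184157, plus strand: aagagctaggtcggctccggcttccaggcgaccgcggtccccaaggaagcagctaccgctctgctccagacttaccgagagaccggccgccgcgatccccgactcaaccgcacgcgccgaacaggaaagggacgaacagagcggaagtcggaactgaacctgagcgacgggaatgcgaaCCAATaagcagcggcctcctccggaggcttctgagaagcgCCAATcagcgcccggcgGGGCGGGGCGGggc
B4galt1, chr4:40853985-40854234, minus strand: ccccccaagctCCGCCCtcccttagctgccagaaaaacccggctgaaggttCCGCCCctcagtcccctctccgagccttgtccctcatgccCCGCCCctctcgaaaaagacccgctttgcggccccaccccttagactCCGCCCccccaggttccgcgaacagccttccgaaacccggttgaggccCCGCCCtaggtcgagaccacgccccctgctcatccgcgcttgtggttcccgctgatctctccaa
B4galt3, chr1:171270078-171270327, plus strand: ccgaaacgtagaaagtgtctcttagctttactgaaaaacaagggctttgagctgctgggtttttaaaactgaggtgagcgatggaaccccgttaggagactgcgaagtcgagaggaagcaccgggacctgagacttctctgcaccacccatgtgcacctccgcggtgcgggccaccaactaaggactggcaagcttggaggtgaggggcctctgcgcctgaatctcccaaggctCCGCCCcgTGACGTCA
B4galt4, chr16:38742009-38742258, plus strand: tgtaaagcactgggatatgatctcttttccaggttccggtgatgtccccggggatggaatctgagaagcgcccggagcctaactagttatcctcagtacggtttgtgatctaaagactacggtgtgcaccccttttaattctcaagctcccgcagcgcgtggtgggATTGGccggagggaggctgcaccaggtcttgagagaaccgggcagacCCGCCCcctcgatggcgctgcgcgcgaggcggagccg
A GC box was matched 5 times before B4galt1, 2 times before Mgat2, and 1 time each before B4galt3 and B4galt4, and 32.7% of 32851 promoters of the same length hold at least 1 match. CCAAT was matched 2 times before Mgat2 and 1 time before B4galt4, against 33.8% of all promoters with a match. The CRE letters were matched 1 time, before B4galt3, against 1.55% of all promoters. All 4 stretches were above the median promoter in GC content, with 66.8% for Mgat2, 66.4% for B4galt1, 59.2% for B4galt4 and 56.8% for B4galt3 against a median of 52.4%. Of the 10 genes, 9 were matched in the RefSeq table, all but Mgat4b. The 250 bases before the RefSeq start of Man2a1, and those of B3gnt2, lay wholly within exons of the same gene and are not shown. Of the stretches shown, 21 bases of B4galt1 and 1 base of Mgat2 lay within exons of the same gene.

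The deposited values are read counts that the authors scaled per library and rounded, and they are called normalized counts here. Their totals lay between 10911849 and 12263307 per sample, and the depth recovered from the spacing of the values was 6759106 to 16229893 reads per sample, so that 1 read amounted to 0.756 to 1.67 normalized counts. All 12 markers of intestinal epithelium had a median of at most 3 normalized counts, whereas 8 of 9 mesenchymal markers had a median of at least 50. The summed epithelial markers lay at 266 to 477 normalized counts in the line labelled FUT4 and at 3 to 51 in the other lines, of which Krt20 made up 263 to 468 in the line labelled FUT4. The part of this difference in the results was not tested. In bulk RNA, fewer cells with a transcript and less of it per cell cannot be told apart.

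The targeted genes were checked first. Cmas, which activates sialic acid, had 93 to 142 normalized counts in CMAS KO and DKO and at least 272 in every other sample. C1galt1c1 had 124 to 163 normalized counts in COSMC KO, against 242, 220 and 251 in MOCK#1. CMAS KO (215, 181 and 152) and MOCK#2 (173, 154 and 217) overlapped with COSMC KO. In DKO the 206, 166 and 175 normalized counts of C1galt1c1 were not lower than in CMAS KO. A frameshift need not lower the RNA, so this level does not show whether the protein was lost. Fut4 had at most 1 normalized count in all 24 samples, the line labelled FUT4 included. In that line Fut9 had 209, 171 and 186 normalized counts, against 955, 641 and 676 in the FUT9 line and 0 to 7 in the other lines. The RNA of the line labelled FUT4 therefore went against its label, and directions drawn from it refer to the label only.

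Per kilobase of exon, Mgat4b was the most abundant of the 10 genes, with a mean of 418 normalized counts over 24 samples. Mgat2 followed with 218, Man2a1 with 216, Mgat1 with 154, B4galt1 with 115, B4galt3 with 101 and Mgat5 with 44.4 normalized counts per kilobase. B4galt4 and Mgat4a were far lower at 3.82 and 3.44 per kilobase, and B3gnt2 was at 0.435. The order of Mgat2 and Man2a1 depended on the line, with Man2a1 higher per kilobase in WT, MOCK#1, COSMC KO and the FUT9 line and Mgat2 in the other 4. Mgat4b thus made up 98.0% to 99.6% of the summed Mgat4a and Mgat4b level per kilobase in the line means, whereas B4galt1 and B4galt3 were near equal, with B4galt1 at 46.5% (line labelled FUT4) to 58.7% (FUT9 line) of their sum. Mgat1 made up 48.0% of the summed Mgat1 and Mgat2 level per kilobase in COSMC KO and 32.4% in the FUT9 line.

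**Figure D1:**
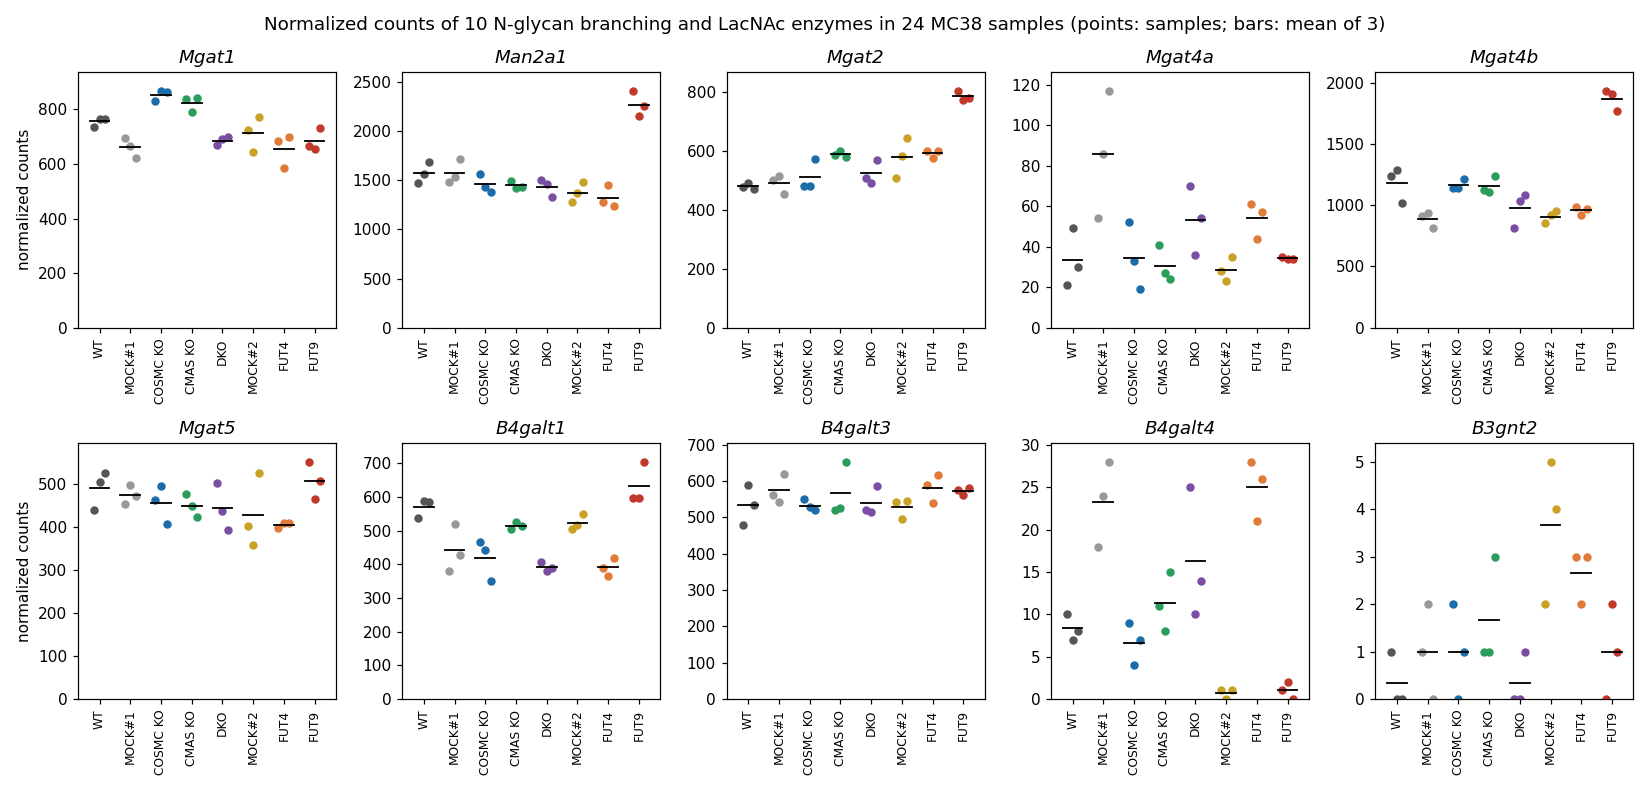
Normalized counts (vertical axes, from 0) of the 10 genes in every sample of the 8 lines (horizontal axes), with a bar at the mean of 3 samples. Man2a1, Mgat2 and Mgat4b stood apart in the FUT9 line, B4galt4 had 0 to 2 normalized counts in MOCK#2 and the FUT9 line, and B4galt3 stayed between 480 and 652.

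Across all 8 lines, 8 of the 10 genes differed in a limma F test (adjusted p below 0.05), against 40.8% of the 24847 genes tested, and 1 of the 8 was B3gnt2, whose values lay between 0 and 5 and do not measure its expression. Mgat5 (adjusted p = 0.299) and B4galt3 (adjusted p = 0.710) were not called. When the lines were ordered by their means, few neighbours in the order were free of overlap: 2 of 7 steps for Mgat4b, 1 of 7 for Mgat1, Mgat2, Man2a1, B4galt1 and B4galt4, and 0 of 7 for Mgat4a, Mgat5, B4galt3 and B3gnt2. For Man2a1, Mgat2 and B4galt1 the only such step lay below the FUT9 line, and for B4galt1 it was narrow, with a lowest sample of 596 above a highest of 589 in WT. For Mgat4b one step lay below the FUT9 line and the other between CMAS KO and DKO.

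Mgat1 (ENSMUSG00000020346) lies on chromosome 11 of GRCm38 from 49244191 to 49263030. It had 830, 868 and 864 normalized counts in COSMC KO and 837, 789 and 841 in CMAS KO. MOCK#1 had 695, 666 and 621, DKO 669, 690 and 697, and WT 736, 766 and 766. Samples of the single knockouts were above every sample of the other lines: MOCK#2 had 726, 643 and 773, the line labelled FUT4 683, 585 and 698, and the FUT9 line 665, 656 and 730.

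Man2a1 (ENSMUSG00000024085), the Golgi mannosidase, lies on chromosome 17 from 64600736 to 64755110. It had 2410, 2149 and 2252 normalized counts in the FUT9 line. The other 7 lines lay together, between 1234 in the line labelled FUT4 and 1719 in MOCK#1, so no sample of theirs reached the FUT9 line.

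Mgat2 (ENSMUSG00000043998) lies on chromosome 12 from 69184157 to 69186770 and showed the same separation. It had 805, 773 and 780 normalized counts in the FUT9 line, and at most 645 in any other sample, a value of MOCK#2. The lowest was 455, in MOCK#1. CMAS KO had 586, 600 and 580, above all MOCK#1 samples at 501, 516 and 455.

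Mgat4b (ENSMUSG00000036620) lies on chromosome 11 from 50210890 to 50235103. It had 1933, 1905 and 1772 normalized counts in the FUT9 line, and the next sample was at 1287, in WT. MOCK#2 had 851, 918 and 952 and the line labelled FUT4 983, 920 and 967. Among the knockouts, COSMC KO had 1140, 1143 and 1217 and CMAS KO 1123, 1105 and 1235, above MOCK#1 with 913, 937 and 815. DKO had 814, 1036 and 1083 and overlapped with MOCK#1.

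Its paralog Mgat4a (ENSMUSG00000026110; chromosome 1, 37439340 to 37541016), which can add the same branch, was low and variable. MOCK#1 had 54, 86 and 117 normalized counts, the line labelled FUT4 61, 44 and 57, and DKO 70, 36 and 54. The remaining 5 lines lay between 19 and 52, and the median coefficient of variation within a line was 30.7%, against 5.88% for Mgat4b. Mgat5 (ENSMUSG00000036155; chromosome 1, 127205015 to 127488336) lay between 357 and 551 normalized counts in all samples, and every line overlapped with its neighbours in the order of means.

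B4galt1 (ENSMUSG00000028413; chromosome 4, 40804602 to 40854005), a galactosyltransferase that is also a subunit of lactose synthase, had 598, 596 and 704 normalized counts in the FUT9 line and 389, 365 and 419 in the line labelled FUT4. MOCK#2 lay between them at 504, 517 and 549. DKO had 407, 381 and 389, below CMAS KO with 506, 526 and 514. B4galt3 (ENSMUSG00000052423; chromosome 1, 171270328 to 171276896) was the steadiest of the 10 genes, with line means within a factor of 1.1. Of its exon bases, 14.5% overlap with Ppox on the other strand.

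B4galt4 (ENSMUSG00000022793; chromosome 16, 38742264 to 38769049) had the widest range of the line means on the log2 scale. It had 18, 24 and 28 normalized counts in MOCK#1 and 28, 21 and 26 in the line labelled FUT4. It had 1, 0 and 1 in MOCK#2 and 1, 2 and 0 in the FUT9 line. The remaining lines lay in between: WT had 10, 7 and 8, COSMC KO 9, 4 and 7, CMAS KO 11, 8 and 15, and DKO 25, 10 and 14.

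B3gnt2 (ENSMUSG00000051650; chromosome 11, 22834747 to 22860961) had 0 to 5 normalized counts in all samples. All 1191 of its coding bases, and 75.3% of its exon bases, overlap with another gene model, most with Gm28048 on the same strand, which itself had 0 to 1. The authors' counting left out reads that overlap more than 1 gene, so these values do not measure the expression of B3gnt2, and no fold is given for it. For the other 8 genes the shared part of the exons was at most 2.22%.

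The question of the overexpressing lines was asked against MOCK#2. In the FUT9 line Mgat4b was 2.06-fold higher, Man2a1 1.65-fold and Mgat2 1.36-fold than in MOCK#2. The log2 fold changes were 1.04 for Mgat4b (SE 0.0692, limma adjusted p = 0.0003017), 0.72 for Man2a1 (SE 0.0772, adjusted p = 0.001208) and 0.45 for Mgat2 (SE 0.0947, adjusted p = 0.01579). These 3 of 10 genes compare with 24.1% of all genes tested in either direction and 12.1% in the higher direction. The median log2 fold change of the 10 genes was 0.26, against 0.01 over all genes. When the values were rescaled to the same total in every sample, the calls over the whole table moved from 2596 higher and 2570 lower to 1979 higher and 3237 lower, and the 3 genes stayed higher.

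The remaining members did not pass in the FUT9 line. B4galt1 had a log2 fold change of 0.27 (95% CI 0.06 to 0.48, adjusted p = 0.0665, limma) with no overlap between the lines, and Mgat5 one of 0.26 (−0.09 to 0.61). Mgat1 was at −0.06 (−0.27 to 0.15) and B4galt3 at 0.12 (−0.04 to 0.28). Samples of 5 genes did not overlap between the lines, against 36.8% of all genes. The call of Mgat2 was lost when MOCK#2 replicate 2 or any 1 sample of the FUT9 line was left out (adjusted p up to 0.0752), and those of Mgat4b and Man2a1 were kept whichever 1 sample was left out.

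In the line labelled FUT4, 3 of 10 genes differed from MOCK#2, against 16.1% of all genes. B4galt4 was higher, with 25 ± 3.6 against 0.667 ± 0.577 normalized counts (SD, n = 3). About 79 reads against 2 gave a ratio of 35.2 with a 95% counting interval of 9.43 to 296, which covers counting error only. Mgat4a was 1.86-fold higher (log2 fold change 0.90, SE 0.237, limma adjusted p = 0.0452). B4galt1 was 1.34-fold lower (log2 fold change −0.42, SE 0.0810, adjusted p = 0.0148). Man2a1, Mgat2 and Mgat4b did not pass, with log2 fold changes of −0.06 (95% CI −0.27 to 0.15), 0.04 (−0.19 to 0.27) and 0.08 (−0.09 to 0.24). The call of B4galt1 was lost without MOCK#2 replicate 2 or sample 1 of the line labelled FUT4 (adjusted p up to 0.0646), and that of Mgat4a on leaving out any 1 sample other than MOCK#2 replicate 3 (adjusted p up to 0.150).

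**Figure D2:**
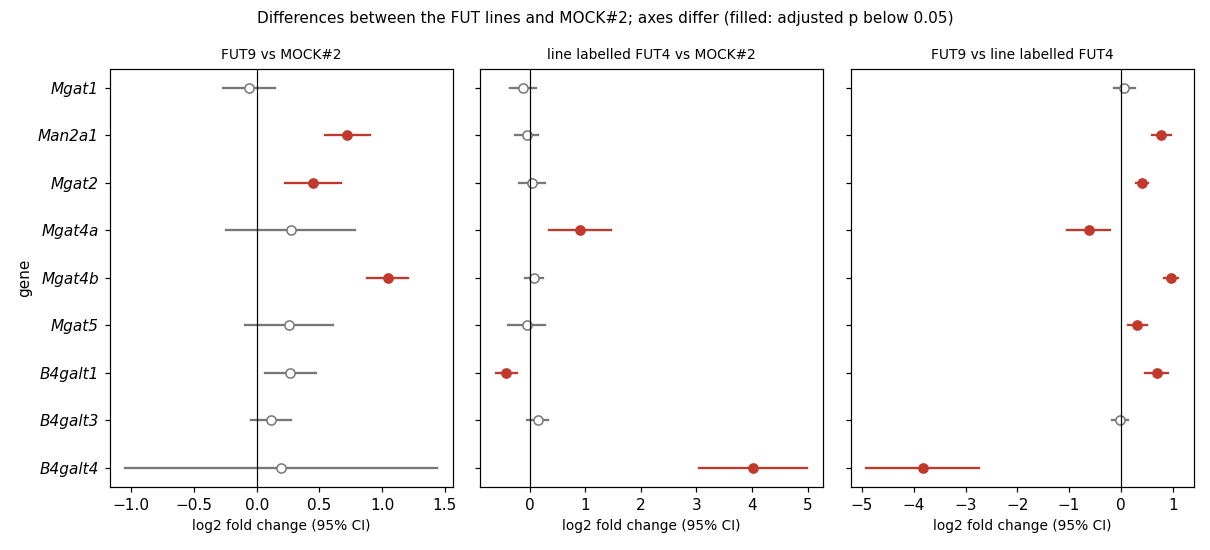
Log2 fold changes with 95% confidence intervals (horizontal axes, whose scales differ between panels) of 9 genes in the FUT9 line against MOCK#2, the line labelled FUT4 against MOCK#2, and the FUT9 line against the line labelled FUT4; filled points passed an adjusted p of 0.05. Mgat4b, Man2a1 and Mgat2 lay to the right of 0 in the first and last panel, and B4galt4 lay far to the right in the middle panel and far to the left in the last.

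Set against each other, the 2 lines differed in 7 of 10 genes, against 31.5% of all genes. In the FUT9 line, Mgat4b was 1.95-fold higher (log2 fold change 0.97, SE 0.0568), Man2a1 1.72-fold (0.78, SE 0.0785), B4galt1 1.61-fold (0.69, SE 0.0907), Mgat2 1.3-fold (0.41, SE 0.0519) and Mgat5 1.25-fold (0.32, SE 0.0763). Their limma adjusted p-values were 8.2e-05, 0.000530, 0.00158, 0.00139 and 0.0191. Mgat4a was 1.54-fold lower (adjusted p = 0.0344), and B4galt4 was lower in the FUT9 line, where about 4 reads against 79 in the line labelled FUT4 gave a ratio of 23.6 (95% counting interval 8.85 to 88.6) between the lines. Thus 5 genes were higher and 2 were lower in the line with more Fut9 RNA. In this comparison 7 genes did not overlap, against 41.4% of all genes. The call of Mgat5 was lost without sample 1 or 3 of the line labelled FUT4 or sample 3 of the FUT9 line (adjusted p up to 0.0693), and that of Mgat4a on leaving out any 1 sample other than sample 2 of the line labelled FUT4 (adjusted p up to 0.0951).

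The 2 samples of the line labelled FUT4 taken at passage 7 differed by 1.6 times the variance that counting alone gives, the lowest of 24 pairs of samples within a line, whose highest was 10.5. They were counted as separate samples. Without sample 1, 1 of the 3 calls against MOCK#2 remained, that of B4galt4.

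The mock lines themselves differed in 2 of 10 genes, against 11.3% of all genes. MOCK#2 had fewer reads of B4galt4 than MOCK#1, about 2 against 74, which gave a ratio of 32.2 between MOCK#1 and MOCK#2 (95% counting interval 8.62 to 271). Mgat4a was 2.82-fold lower in MOCK#2 (log2 fold change −1.50, SE 0.316, limma adjusted p = 0.0285). These are the 2 genes that were higher in the line labelled FUT4 than in MOCK#2, and MOCK#2 is shared by both comparisons. B4galt4 had 18 to 28 normalized counts in MOCK#1 and 21 to 28 in the line labelled FUT4. The call of Mgat4a was lost on leaving out any 1 sample other than MOCK#1 replicate 1 (adjusted p up to 0.129).

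Against MOCK#1, COSMC KO differed in 3 of 10 genes, with 11.6% of all genes called. Mgat1 was 1.29-fold higher (log2 fold change 0.37, SE 0.0650, limma adjusted p = 0.0135) and Mgat4b 1.31-fold higher (0.39, SE 0.0710, adjusted p = 0.0149). B4galt4 was lower, with 6.67 ± 2.52 against 23.3 ± 5.03 normalized counts (SD, n = 3; log2 fold change −1.70, SE 0.366, adjusted p = 0.0268). These 3 genes lay on the same side of MOCK#1 in unmodified WT, where none passed. There the means were 756 normalized counts for Mgat1, 1180 for Mgat4b and 8.33 for B4galt4. Samples of 4 genes did not overlap between COSMC KO and MOCK#1, against 28.4% of all genes. The other 7 genes did not pass. Mgat4a had a log2 fold change of −1.32 (95% CI −2.28 to −0.36, adjusted p = 0.0836), and Mgat5, Man2a1, Mgat2, B4galt1 and B4galt3 lay between −0.11 and 0.06. The calls were lost without MOCK#1 replicate 2 or COSMC KO replicate 2 or 3 for all 3 genes, without MOCK#1 replicate 1 or COSMC KO replicate 1 for Mgat4b, and without MOCK#1 replicate 1 or 3 for B4galt4 (adjusted p up to 0.108).

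CMAS KO differed in 2 of 10 genes, against 5.76% of all genes. They were again Mgat1, 1.25-fold higher (log2 fold change 0.32, SE 0.0688, limma adjusted p = 0.0469), and Mgat4b, 1.3-fold higher (0.38, SE 0.0792, adjusted p = 0.0413). CMAS KO and COSMC KO were compared with the same 3 samples of MOCK#1. In both genes all WT samples lay above these MOCK#1 samples as well, without a call. Samples of 5 genes did not overlap between CMAS KO and MOCK#1, against 24.3% of all genes. Mgat2 had a log2 fold change of 0.26 (95% CI 0.09 to 0.44, adjusted p = 0.0859) and Mgat4a one of −1.42 (−2.21 to −0.63, adjusted p = 0.0582). Both calls were lost when any 1 of the 6 samples was left out (adjusted p 0.0725 to 0.133).

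In DKO none of the 10 genes passed, against 0.092% of all genes, and by limma 0 had an unadjusted p below 0.05. The log2 fold change of Mgat1 was 0.05 (95% CI −0.12 to 0.23) and that of Mgat4b 0.13 (−0.14 to 0.40). WT against MOCK#1 also gave 0 of 10, with 5.51% of all genes called. There 5 genes had an unadjusted p below 0.05 and did not overlap, against 23.4% of all genes without overlap. Mgat4b had a log2 fold change of 0.40 (95% CI 0.14 to 0.67) and B4galt1 one of 0.38 (0.08 to 0.67). Mgat1 was at 0.20 (0.01 to 0.38), Mgat4a at −1.35 (−2.26 to −0.44) and B4galt4 at −1.37 (−2.14 to −0.61). Other than B4galt1, these genes moved in the same direction in both single knockouts. WT also differs from MOCK#1 in passage, puromycin and construct.

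**Figure D3:**
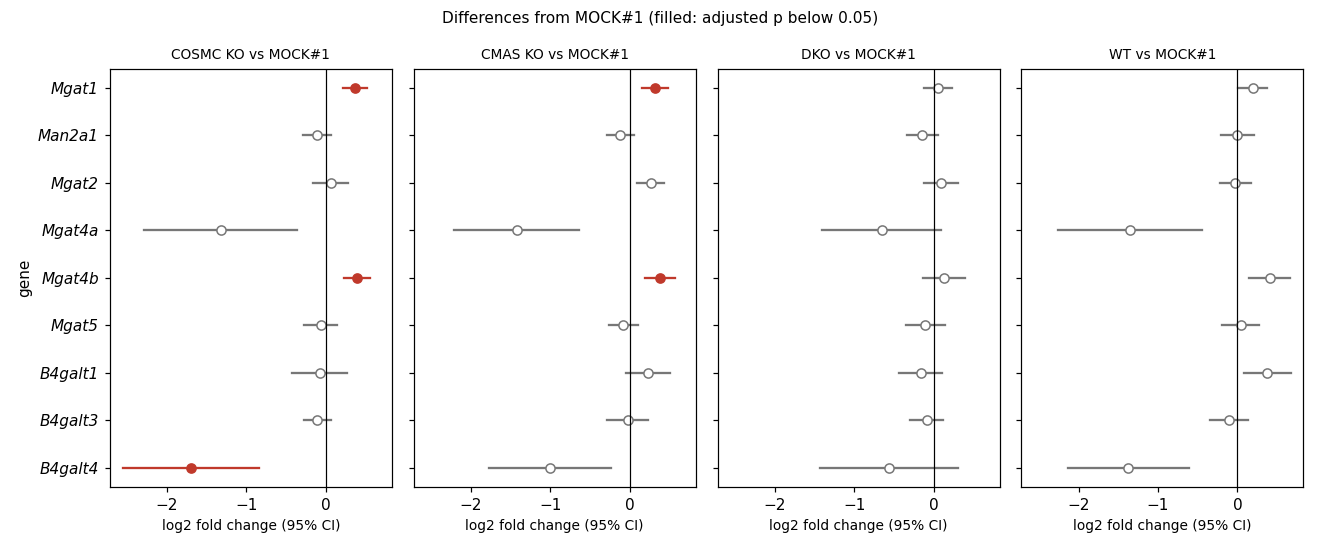
Log2 fold changes from MOCK#1 with 95% confidence intervals (horizontal axes, the same scale in all panels) of 9 genes in COSMC KO, CMAS KO, DKO and WT; filled points passed an adjusted p of 0.05. Mgat1 and Mgat4b passed in both single knockouts and B4galt4 in COSMC KO, and no gene passed in DKO or WT.

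DKO was also set against CMAS KO, which asks for the effect of the COSMC label where Cmas was targeted in both lines. Only B4galt1 differed, 1.31-fold lower in DKO (log2 fold change −0.39, SE 0.0763, limma adjusted p = 0.0227), 1 of 10 genes against 6.93% of all genes. Mgat1 was at −0.26 (95% CI −0.42 to −0.10, adjusted p = 0.0640). The call of B4galt1 was lost on leaving out any 1 sample other than DKO replicate 1 (adjusted p up to 0.0955). It was lost as well with the replicate number as a block, in a comparison where every sample correlated best with its own number.

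The effect of the COSMC label without the CMAS label was then compared with its effect where the CMAS label was present. Here 4 of 10 genes differed, against 19.0% of all genes tested. The COSMC effect on Mgat1 was 0.37 without and −0.26 with the CMAS label (log2), a difference of 0.63 (SE 0.0936, limma adjusted p = 0.000302). For Mgat4b it was 0.39 without and −0.25 with, a difference of 0.64 (SE 0.140, adjusted p = 0.00516). For Mgat4a (−1.32 and 0.77, difference −2.09, adjusted p = 0.0142) and B4galt4 (−1.70 and 0.44, difference −2.14, adjusted p = 0.0204) the order was the opposite. DKO thus lay nearer to MOCK#1 than either single knockout did in the means of all 4 genes, and the C1galt1c1 RNA of DKO was not below that of CMAS KO. WT, without either label, was also farther from MOCK#1 than DKO was in all 4 means. The call of B4galt4 was lost without COSMC KO replicate 2 or CMAS KO replicate 2 (adjusted p up to 0.0517).

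**Figure D4:**
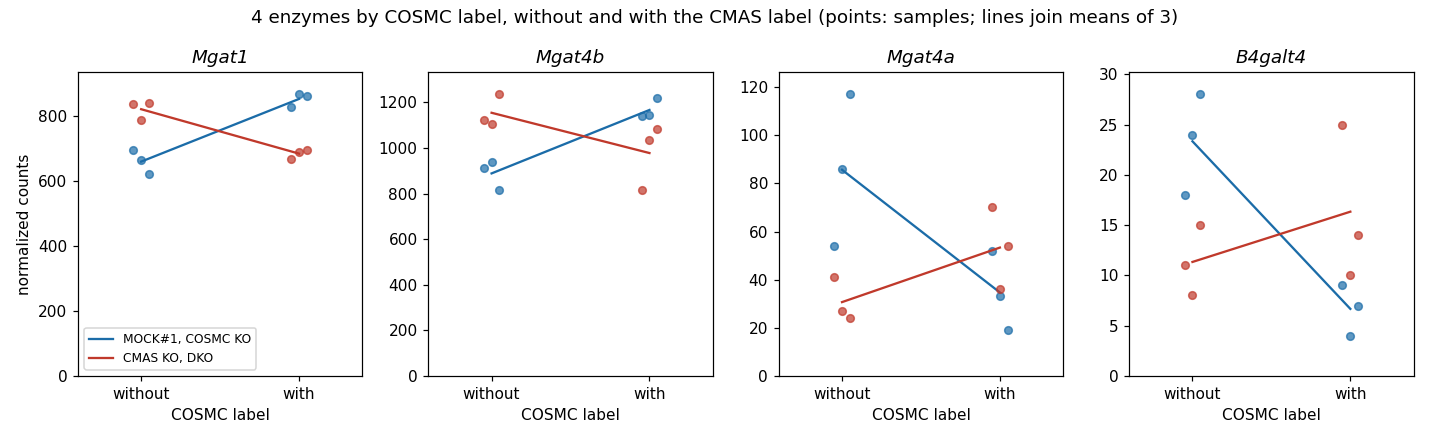
Normalized counts (vertical axes, from 0) of Mgat1, Mgat4b, Mgat4a and B4galt4 without and with the COSMC label (horizontal axes), in lines without the CMAS label (blue, MOCK#1 and COSMC KO) and with it (red, CMAS KO and DKO); points are samples and lines join means of 3. The lines cross in all 4 panels.

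Of the wider pathway, 85 genes on 5 lists were examined in the FUT9 line against MOCK#2. Of all genes tested, 24.1% were called in this comparison. Among enzymes of early trimming, 5 of 12 tested were called, 3 higher and 2 lower. Man1c1 and Man1a2, mannosidases that act before Mgat1, were 1.62-fold and 1.32-fold higher, and Ganab, the catalytic subunit of glucosidase II, 1.24-fold higher. Man1a, a further mannosidase of this step, was 1.39-fold lower and the lysosomal Man2b1 1.5-fold lower. The median log2 fold change of the list was 0.07.

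Of the other LacNAc and related transferases, 5 of 8 were called in the FUT9 line against 24.1% of all genes, 3 higher and 2 lower. B4gat1, a glucuronyltransferase that acts on dystroglycan, rose from 275 ± 50.4 to 409 ± 36.5 normalized counts (SD, n = 3). The LacNAc galactosyltransferase B4galt2 rose from 434 ± 6.56 to 561 ± 5.29 normalized counts (SD, n = 3), with 28.2% of its exon bases shared with other genes. B4galt6, which makes lactosylceramide, rose from 416 ± 22.2 to 607 ± 21.1. B3gnt3, which extends core O-glycans, fell from 223 ± 39.6 to 28.7 ± 5.51, and Gcnt2, which branches poly-LacNAc, from 67.7 ± 4.51 to 12 ± 2.1. In the line labelled FUT4 the same 2 genes were higher than in MOCK#2, at 372 ± 46.5 and 110 ± 12.1, and B4galt6 was lower at 297 ± 28.1.

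Enzymes that cap LacNAc were called in 3 of 7 cases in the FUT9 line, against 24.1% of all genes, 1 of which was the targeted Fut9. The sialyltransferase St3gal4 rose from 430 ± 47.6 to 758 ± 136 normalized counts, with 14.1% of its exon bases shared with another gene. St3gal6, which also sialylates LacNAc, fell from 188 ± 4.36 to 10.0 ± 5.57, and 26.4% of its exon bases are shared with another gene. In COSMC KO and WT, St3gal6 was also lower than in MOCK#1, at 80.0 ± 2.65 and 113 ± 5.20 against 235 ± 20.4.

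Genes of nucleotide sugar supply were called in 8 of 17 cases in the FUT9 line, against 24.1% of all genes, 3 higher and 5 lower, with a median log2 fold change of −0.30. Slc35a3, the Golgi transporter of UDP-N-acetylglucosamine, was 1.38-fold higher, and Gnpnat1 and Uap1, which make that sugar nucleotide, were 1.67-fold and 1.28-fold higher. Of the 32 genes of the lipid-linked precursor and its transfer, 8 were called, 6 higher and 2 lower, a share near the 24.1% of all genes. The glucosyltransferase Alg8 was 2.02-fold higher.

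The same lists were examined in the comparisons with MOCK#1. In COSMC KO, 1 of 13 early trimming genes, 5 of 9 LacNAc and related transferases, 3 of 7 capping enzymes, 2 of 17 supply genes and 2 of 32 precursor genes were called, against 11.6% of all genes. In CMAS KO the counts were 0 of 13, 1 of 9, 1 of 6, 0 of 17 and 3 of 32, against 5.76% of all genes, and in DKO 0 in each list, against 0.092%, with all 5 list medians between −0.11 and 0.05. B3gnt3 was lower in both single knockouts, at 218 ± 29.7 in COSMC KO and 283 ± 27.6 in CMAS KO against 445 ± 39 in MOCK#1, and stood at 500 ± 3.21 in DKO. It was also lower than in MOCK#1 in WT, at 241 ± 43.1, and in MOCK#2, at 223 ± 39.6. Dpagt1, which starts the lipid-linked precursor, was higher in both, at 701 ± 25.7 and 643 ± 26.6 against 500 ± 35.5, and likewise in MOCK#2 at 669 ± 47.6, with WT at 645 ± 33.0.

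In the line labelled FUT4 against MOCK#2, 4 of 12 early trimming genes, 4 of 9 LacNAc and related transferases, 4 of 9 capping enzymes, 2 of 17 supply genes and 8 of 32 precursor genes were called, against 16.1% of all genes. Man1c1 fell from 179 ± 31.1 to 50.3 ± 7.51 normalized counts and Manea, which cleaves glucosylated mannose in the Golgi, rose from 259 ± 23.4 to 541 ± 49.4.

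The genes around the members were examined in a window of 2 Mb on either side, where their mean over all samples was at least 10 normalized counts. Around Man2a1, 17 genes had a median log2 fold change of 0.39 in the FUT9 line against the line labelled FUT4, with 8 of them called higher and 0 lower. Against MOCK#2 the median of the 17 genes was 0.11, with 4 higher and 1 lower. Of all genes tested, 31.5% and 24.1% were called in these 2 comparisons, in either direction. These shares include genes below that mean, so they are not a like background for the window. Around Mgat4b, 49 genes had medians of 0.06 and 0.01. Around Mgat2, 29 genes had medians of −0.04 and 0.08. Man2a1 itself was at 0.78 and 0.72 in these comparisons. In the line labelled FUT4 against MOCK#2, the 17 genes around Man2a1 had a median of −0.175. There 1 was called higher and 5 lower, with 16.1% of all genes called in either direction, genes below that mean included. The part of the neighbourhood in the differences of Man2a1 was not tested.

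Over the 8 line means on the log2 scale, Mgat4b followed Man2a1 most closely among the members (r = 0.87), and Mgat5 also followed Man2a1 (r = 0.84). The FUT9 line had the highest mean of each of these genes, and in Mgat4b and Man2a1 it stood apart from every other line. How far these correlations rest on the FUT9 line alone was not tested. B4galt1 and B4galt4 ran opposite (r = −0.71). Across all genes with a mean of at least 50, those whose line means were most like B4galt4 were Pkia (r = 0.990), Ubxn1 (r = 0.983) and Rab11fip1 (r = 0.977), and 116 genes had r above 0.9. For Mgat4a they were Mpc2 (r = 0.947), Usp39 (r = 0.943) and Hars (r = 0.927). These values describe 8 points that share libraries within a line.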

How the data were processed

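RNA of 24 samples of 8 MC38 lines was analysed, 3 per line, grouped by their labels. Per the study's methods and processing notes, trimmed reads were aligned by the authors to GRCm38 with HISAT2 2.0.4, counted them per gene with featureCounts of Subread 1.5.0-p3, leaving out reads that overlap more than 1 gene, and normalized them with edgeR 3.18.1. The table deposited by the authors therefore holds a score per gene, namely read counts after scaling for library size and composition and rounding, and no count model was applied to it. The strand setting of the counting is not given in the sources used here.

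After a pseudocount of 1 had been added, log2 values were fitted with lmFit of limma 3.58.1 under R 4.3.3 and moderated by eBayes along the trend of variance with level, without covariates. Fold changes are on this scale, which understates those of low genes. Genes with more than 4 zeros among 6 samples were left out (10 of 12 for the comparison of effects, 21 of 24 for the F test). P-values were adjusted over all genes tested (Benjamini-Hochberg), and an adjusted p below 0.05 called a gene. Every member passed the filter in every comparison.

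The rounded values leave gaps, from whose spacing the depth was derived, and ratios of low genes have exact 95% intervals for counting error. Python 3.11.15, numpy 2.4.6, pandas 2.3.3, scipy 1.17.1 and matplotlib 3.10.9 did the remaining steps. Alternatives were the pseudocount, the filter, other scalings, the removal of each chromosome's median, eBayes with no trend, an adjusted p below 0.01, the replicate block, all lines in a single fit, and leaving out each sample in turn.

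The members and gene lists were chosen with earlier results of these data known. The text names all 10 members, the targeted genes, from each pathway list up to 3 called genes per comparison and direction with the largest change, no overlap between lines and a mean of at least 50 in the higher line, and the 3 genes with line means most like each of the 3 members of widest range, of which B3gnt2 was left out since its values do not measure its expression. Krt20, Gm28048 and Ppox were not chosen by this rule but after a look at their values. One gene that the rule selects is not reported here.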

Additional observations from a re-analysis of the deposited data

Results flagged for a closer look

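In 4 of the 10 genes the effect of the COSMC label differed between lines without and with the CMAS label, by a limma contrast of the 2 effects. On the log2 scale the difference was 0.6333 for Mgat1 and 0.6435 for Mgat4b, whose COSMC effects were positive without and negative with the CMAS label. It was −2.089 for Mgat4a and −2.139 for B4galt4, whose effects were negative without and positive with it. The 4 genes compare with 19.0% of all genes tested, and C1galt1c1 had 206, 166 and 175 normalized counts in DKO, not lower than in CMAS KO. In WT, without either label, all 4 genes lay on the same side of MOCK#1 as in COSMC KO.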

How the results depend on the processing

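The 37 results of single members examined were those with an unadjusted limma p below 0.05 under the main settings, B3gnt2 left out. Of these, 25 were called and 0 turned direction under any alternative. Results picked in this way lie away from 0, so a turn of direction was unlikely beforehand. Of the 25, 12 stayed called under every alternative other than the threshold of 0.01, among them Mgat4b and Man2a1 in the FUT9 line against MOCK#2 and against the line labelled FUT4. The number of members called in COSMC KO was 1 without a trend, 0 at an adjusted p below 0.01 and 0 to 2 when a sample was left out. In CMAS KO it was 1 with no filter, 1 after rescaling to the same total, 4 after removing each chromosome's median, 0 without a trend, 0 at 0.01 and 0 when any 1 sample was left out. In WT it was 1 with a mean of at least 10, 1 after removing the chromosome median, 4 with all 8 lines in 1 fit and 1 without a trend, against 0. In MOCK#2 it was 4 after removing the chromosome median, 1 without a trend, 1 at 0.01 and 1 to 2 when a sample was left out. In the line labelled FUT4 it was 1 without a trend, 1 at 0.01 and 1 to 3 when a sample was left out. In DKO against CMAS KO it was 2 with a mean of at least 10, 2 with all 8 lines, 0 without a trend, 0 at 0.01 and 0 to 1 when a sample was left out. For the difference of COSMC effects it was 2 at 0.01. The causes were not tested, other than that leaving out a sample gives fewer samples.

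The numbers were taken as pairs only where all 3 same-numbered pairs correlated above 0.1, which no comparison reached (correlations −0.21 to 0.25). All 3 were above 0 in MOCK#2 against MOCK#1, the FUT9 line against MOCK#2 and against the line labelled FUT4, and DKO against CMAS KO. Every sample correlated best with its own number in MOCK#2 against MOCK#1, the FUT9 line against MOCK#2 and DKO against CMAS KO, which is a hint from the data only. With the replicate number as a block, 0 members were called in COSMC KO, 0 in CMAS KO, 1 in MOCK#2 against MOCK#1 and 0 in DKO against CMAS KO. The calls over all genes with the block moved from 2563 to 4 in COSMC KO, 1268 to 1 in CMAS KO, 20 to 0 in DKO, 1192 to 0 in WT, 3509 to 1756 in the line labelled FUT4 and 1515 to 795 in DKO against CMAS KO.

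Over all genes, calls without a trend came to 1135 in COSMC KO, 726 in CMAS KO, 717 in WT, 1389 in MOCK#2, 2270 in the line labelled FUT4, 3430 in the FUT9 line against MOCK#2 and 692 in DKO against CMAS KO. With all 8 lines in 1 fit they came to 2207 in CMAS KO, 159 in DKO, 2981 in WT, 3976 in MOCK#2 and 2403 in DKO against CMAS KO. Without 1 sample the lowest counts were 675 in COSMC KO, 122 in CMAS KO, 0 in DKO, 31 in WT, 632 in MOCK#2, 1621 in the line labelled FUT4, 3089 in the FUT9 line and 231 in DKO against CMAS KO. With 3 samples per line and 0 to 28 normalized counts, B4galt4 rests on few reads, and the values of B3gnt2 are too low to compare.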
